A study of Mus musculus with 366 samples.

Results

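The genes described are 10 genes of heart muscle, read in the aorta of mice: Myh6, Myl4, Myl7, Nppa, Tnnt2, Tnni3, Actc1, Mybpc3, Ryr2 and Sln. They were chosen by name, and each was read from the probe set that carries its symbol in the annotation of the array, the one with the highest mean where there were several. The annotation names probe sets for 8 of the 10 genes (11 probe sets), out of 17097 genes with a symbol of their own and 45141 probe sets. Sln was not analysed here, and a probe set for Myh6 is described apart from the others.

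RNA was measured in 366 aortas, 1 array per mouse, from 101 strains. All mice were females of 24 weeks, fed chow for 8 weeks and then a Western diet for 16 weeks, and each was an F1 offspring of a female of the named inbred or recombinant inbred strain and a C57BL/6J male carrying human ApoE-Leiden and CETP transgenes. Every mouse therefore carried both transgenes and 1 set of C57BL/6J chromosomes, the positions and copy numbers of the transgenes are not known, and there was no group without them. A strain is 1 cross, so that strain and litter, cage or day cannot be told apart where these went together. The comparison asked how far the F1 crosses differed in these transcripts, and how far mice of 1 cross differed among themselves. Of the strains, 95 had 2 to 8 arrays (360 arrays) and entered the tests, and 6 had 1 array.

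Heart muscle is built of sarcomeres, in which myosin thick filaments pull on actin thin filaments when calcium binds the troponin complex. Atrial and ventricular muscle use partly different genes, with Myl4, Myl7 and Nppa belonging to the adult atrium and Myl2 and Myl3 to the ventricle. Myh7, the slow myosin heavy chain, is listed with the ventricular genes here, while Myh6 is the main myosin heavy chain of the adult mouse heart. Myl2, Myl3 and Myh7 are also genes of slow skeletal muscle. In mice, muscle of the heart type also sheathes the pulmonary veins and the base of the large veins, and the aorta itself leaves the heart at the aortic root. The wall of the aorta is made of smooth muscle, which has its own actin and myosin genes.

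The label of the tissue was checked first. Acta2, the smooth muscle actin, ranged from 8.37 to 13.0 (median 12.05) in log2 units of the normalised array signal, in which a difference of 1 is a 2-fold difference, and all 13 measured genes of a smooth muscle list were read. Ucp1, the uncoupling protein of brown fat, ranged from 12.33 to 13.2, although the aortas were described as cleaned of the fat around them. The 3 measured Y-linked genes, whose transcripts female mice lack, ranged from 1.85 to 3.63, and values of that size are treated as background. In 20 arrays of 18 strains Myl7 was under 6, apart from the bulk of the arrays in most of the cardiac genes. In 29 arrays, Alb of liver or Sftpc of lung was over 6. Both sets of arrays were chosen after their values were seen, and the tests among strains, the spread within strains, the strain calls and the correlations are also given without each set. The first set was chosen by the level of a cardiac gene itself, so that leaving it out takes away low values by construction. These 29 arrays had Myl7 between 5.72 and 12.04 (median 10.05) and the other 337 between 3.47 and 12.07 (median 10.25), so that the sets overlapped over most of the range.

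The genes of the thick filament came first. Myl4, the essential light chain of atrial myosin, was at a lowest value of 4.39, a median of 10.18 and a highest value of 12.32 over the 366 arrays. Myl7, the regulatory light chain of atrial myosin, was at 3.47, 10.24 and 12.07. All arrays for Myl4 and 363 of 366 for Myl7 lay above the highest Y-linked value, so that these atrial light chains were detected in nearly every aorta. Mybpc3, the cardiac myosin-binding protein C, ranged from 2.79 to 8.24 with a median of 4.94, and 47 arrays were at or below the highest Y-linked value. A second probe set of Myl4 ranged from 2.72 to 4.25 and was not used.

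Among the thin filament genes, Actc1, the actin of heart muscle, ranged from 2.98 to 12.44 with a median of 10.2. Tnnt2, the cardiac troponin that binds tropomyosin, ranged from 2.13 to 11.93 with a median of 9.67. Tnni3, the inhibitory troponin of the adult heart, ranged from 2.59 to 11.35 with a median of 9.12. Between 351 and 364 of the 366 arrays were above the highest Y-linked value for these 3 genes. A second probe set of Tnnt2 followed the first closely (r = 1.00 within strains).

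Ryr2, the calcium release channel of the heart's sarcoplasmic reticulum, ranged from 4.04 to 9.22 with a median of 6.52. Its second probe set stayed between 2.43 and 3.45 and was not used. Nppa, which encodes the atrial natriuretic peptide, ranged from 2.5 to 11.36 with a median of 5.83, and in 66 arrays it was at or below the highest Y-linked value. Between the 10th and the 90th percentile of the arrays, the signal of Nppa differed 40.1-fold, that of Tnnt2 14.6-fold and that of Ryr2 7.67-fold. In whole tissue, fewer muscle cells and less RNA per muscle cell cannot be told apart.

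**Figure D1:**
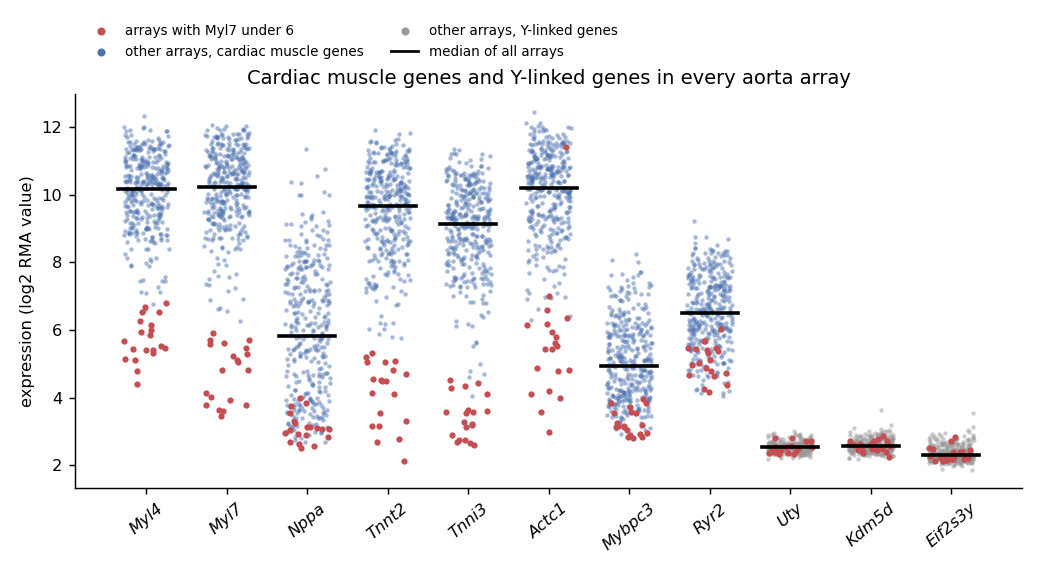
Log2 array signal (vertical axis) of the 8 cardiac muscle genes and of 3 Y-linked genes in each of 366 aorta arrays. Each point is an array, black bars are medians, and red points are the 20 arrays with Myl7 under 6, which are mostly low in the other cardiac genes too but reach 11.40 in Actc1 and 6.02 in Ryr2, where other arrays go down to 4.04.

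The promoters of Nppa, Myl7 and Actc1 are shown because these genes stood apart or moved together in the results that follow. The 250 bases before the RefSeq transcription start (GRCm38.p6) are printed in the direction of the gene, and capitals mark matches to 4 motifs that heart and muscle factors are known to bind, namely the CArG box of serum response factor, the MEF2 site, GATAA of the GATA factors and TNAAGTG of NKX2-5, searched on both strands.
Nppa, chr4:148000472-148000721, plus strand: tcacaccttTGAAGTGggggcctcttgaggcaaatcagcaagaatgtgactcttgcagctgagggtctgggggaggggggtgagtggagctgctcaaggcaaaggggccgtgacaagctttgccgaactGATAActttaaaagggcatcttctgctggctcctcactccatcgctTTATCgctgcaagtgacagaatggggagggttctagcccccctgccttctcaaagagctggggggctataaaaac
Myl7, chr11:5898783-5899032, minus strand: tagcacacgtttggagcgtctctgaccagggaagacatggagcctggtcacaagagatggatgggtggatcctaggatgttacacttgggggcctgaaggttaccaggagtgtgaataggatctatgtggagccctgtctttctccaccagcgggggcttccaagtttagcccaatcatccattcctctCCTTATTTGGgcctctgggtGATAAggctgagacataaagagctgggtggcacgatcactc
Actc1, chr2:114052876-114053125, minus strand: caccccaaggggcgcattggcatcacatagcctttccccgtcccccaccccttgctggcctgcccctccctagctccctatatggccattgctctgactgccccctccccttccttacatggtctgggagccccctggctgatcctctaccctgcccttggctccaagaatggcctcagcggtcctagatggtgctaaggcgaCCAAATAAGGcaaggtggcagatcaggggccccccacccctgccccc
The Nppa window held GATAA at 2 places, 1 on each strand, and TNAAGTG once. The Myl7 window held 1 CArG box and 1 GATAA, and the Actc1 window 1 CArG box. Over the 8 genes, the CArG box was found in the windows of 2, the MEF2 site in 1 (Mybpc3), GATAA in 4 and TNAAGTG in 1. Of all 32851 promoter windows of this length, 1.47% held a CArG box, 1.69% a MEF2 site, 22.6% GATAA and 10.1% TNAAGTG. These matches describe letters in a window and show no binding.

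The levels of the cardiac genes varied more among mice of the same cross than those of almost any other gene. The SD within strains was 1.39 for Myl4, 1.604 for Myl7, 1.72 for Tnnt2, 1.73 for Tnni3, 1.54 for Actc1, 1.12 for Mybpc3, 0.98 for Ryr2 and 1.67 for Nppa, against a median of 0.20 over all genes. Each of the 8 lay between the 99.18 and 99.85 percentile of all probe sets. The SDs were 0.95 to 1.53 without the 20 low arrays, and without the 29 arrays with liver or lung transcripts 0.97 to 1.76, at the 98.72 percentile of all genes or above. In DBA/2J, the 5 arrays read 3.47, 7.58, 8.74, 9.12 and 11.70 for Myl7. In BXD56/RwwJ, the 4 arrays read 2.67, 5.20, 8.63 and 11.41 for Tnnt2. These 2 crosses, named for the widest range of a gene, thus covered most of the range of the whole series. The median range within a strain was 2.20 for Myl7 and 3.20 for Nppa, and in 53 of 95 strains Nppa ranged over more than 3. A wide spread was not particular to the 8 genes. The 10 other genes that followed them most closely, named below, had SDs within strains of 0.61 (Atp2a2) to 1.63 (Myh7). Over all arrays, Acta1 of skeletal muscle ranged from 2.74 to 13.53 and Myl2 from 2.35 to 12.3.

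The 20 arrays with Myl7 under 6 were spread over 18 strains, of which every one also had an array that was not low, and no strain had more than 2. In these arrays Tnni3 was at most 4.52 and Mybpc3 at most 3.97, against medians of 9.17 and 5.06 in the other 346. The mean of the smooth muscle list was between 6.00 and 9.29 (median 8.30) in the low arrays and between 5.66 and 9.94 (median 8.02) in the others. The mean of the 7 brown adipocyte genes was between 9.95 and 10.95 (median 10.67) in the low arrays and between 9.24 and 11.14 (median 10.56) in the others. The low arrays thus had smooth muscle and brown fat transcripts within the range of the rest. When the mice were put in 4 groups of like size by the number in their label, the median of Myl7 was 10.14, 10.34, 10.37 and 10.13, and the low arrays numbered 3, 5, 6 and 6. The last of the 4 groups was higher in Ryr2, with medians of 6.33, 6.36, 6.26 and 6.90, and in Actc1, with 10.13, 10.13, 10.09 and 10.63. It was the lowest in Nppa, with medians of 5.665, 6.08, 6.08 and 5.33, while Mybpc3 rose over the groups, with 4.68, 4.88, 4.97 and 5.15.

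An F test in limma asked whether the 95 strains differed, with p adjusted over all probe sets. All 8 genes passed at an adjusted p under 0.05, as did 77.0% of all probe sets and 80.6% of all genes read from 1 probe set each, so that passing was the common outcome on these arrays. The adjusted p was 5.29e-11 for Nppa, 1.31e-05 for Ryr2, 0.00114 for Mybpc3, 0.00926 for Actc1, 0.00968 for Myl4, 0.0151 for Myl7, 0.0255 for Tnnt2 and 0.0289 for Tnni3. Nppa and Ryr2 passed in each of the 22 alternatives run. The other 6 did not pass in all of them: without replicate 4 of every strain only Nppa and Ryr2 passed, without replicate 3 only 3 genes, without replicate 1 only 5, and without the 29 arrays with liver or lung transcripts 5.

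The share of the variance that lay among strains was small for the contractile genes and larger for Nppa. It was 9.01% ± 4.36 (jackknife SE over 95 strains) for Tnni3, 9.28% ± 3.89 for Tnnt2, 10.4% ± 4.45 for Myl7, 11.3% ± 4.28 for Myl4, 11.3% ± 3.92 for Actc1, 14.9% ± 6.56 for Mybpc3, 20.9% ± 6.2 for Ryr2 and 32.7% ± 6.76 for Nppa. The median of the 8 genes was 11.3% ± 3.78, and the median of all genes was 20.8%. The 5 genes from Tnni3 to Actc1 did not differ from each other beyond these errors, and the errors of Nppa and Ryr2 overlapped. With the 20 low arrays left out Nppa had 40.1% and the other genes 8.84% to 21.1%, and without the 29 arrays Nppa had 32.8% and the others 6.50% to 19.6%.

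**Figure D2:**
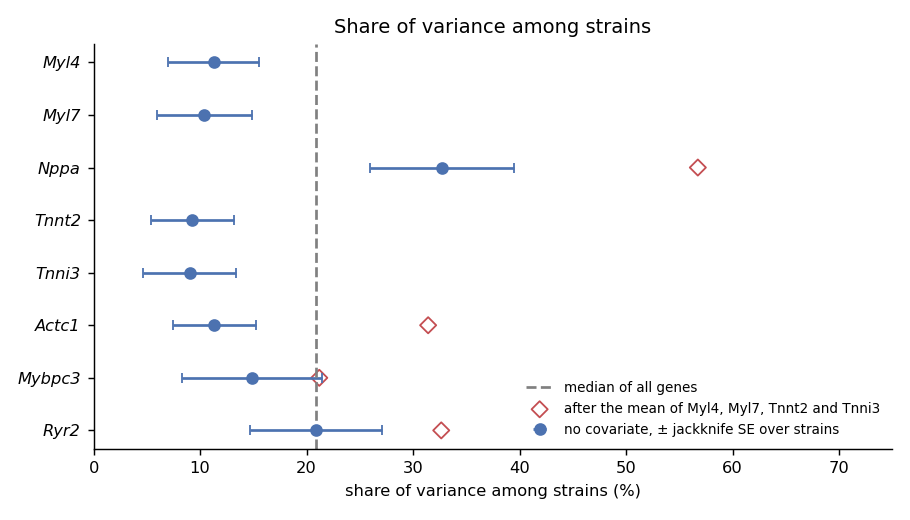
Share of the variance among strains (horizontal axis, percent) for the 8 cardiac muscle genes. Filled circles with bars are the share and its jackknife SE over 95 strains, open diamonds the share after adjustment for the mean of Myl4, Myl7, Tnnt2 and Tnni3, and the dashed line the median of all genes at 20.8%. Nppa lies to the right of the other genes with and without the adjustment.

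Each strain was then compared with the mean of the other strains. Of 760 pairs of a cardiac gene and a strain, 5 were called higher (0.658%, against 2.29% of all pairs of a probe set and a strain) and 8 lower (1.05%, against 1.83%), in 8 strains. The calls fell on Nppa in 6 strains, Ryr2 in 2, and Myl4, Myl7, Tnnt2, Tnni3 and Mybpc3 in 1 each. Actc1 was called in 0 strains by limma, with 11 strains at an unadjusted p under 0.05. Without the 20 low arrays 6 pairs were called higher and 10 lower, and without the 29 arrays with liver or lung transcripts 5 and 6, of 752 pairs each.

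I/LnJ had the highest mean over the 8 genes, 10.14. Nppa read 10.01, 10.001, 9.43 and 10.76 in its 4 arrays, against a median of 5.78 in all other arrays, and 7 of the 362 other arrays lay above the lowest of these. The difference from the other strains was 4.23 ± 0.83 (SE) on the log2 scale, or 18.7-fold (adjusted p = 0.000159 by limma). Mybpc3 read 7.72, 7.33, 7.15 and 8.07 in the same arrays, higher by 2.55 ± 0.56 (adjusted p = 0.00104 by limma). Both differences held without any 1 of the 4 arrays and without either set of arrays. Ryr2 read 8.34, 7.96, 8.29 and 8.34, higher by 1.75 ± 0.49 (adjusted p = 0.0182 by limma), and this call was lost without replicate 1, 3 or 4 (adjusted p 0.0603, 0.0572 and 0.0606) or with the groups of mouse number as a covariate (0.243). Myl7 was between 11.05 and 11.95 in I/LnJ and was not called (1.53 ± 0.80, adjusted p = 0.321 by limma).

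Nppa was also called higher in 2 BXD strains, recombinant inbred lines from C57BL/6J and DBA/2J. In BXD20/TyJ it read 9.49, 10.07, 9.06 and 10.55, higher by 3.97 ± 0.83 (adjusted p = 0.000493 by limma). In BXD84/RwwJ it read 8.97, 9.19, 9.41 and 8.68, higher by 3.23 ± 0.83 (adjusted p = 0.00812 by limma), and this difference had an adjusted p of 0.0506 with those 4 groups of mouse number as a covariate. Without 1 array the adjusted p stayed at most 0.0084 and 0.0391, and both calls held without either set of arrays. The mean over the 8 genes was 9.88 in both strains, the next below I/LnJ, followed by KK/HlJ at 9.62 and BXD87/RwwJ at 9.31.

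Nppa was called lower in SM/J, PL/J and SJL/J. It read 2.82, 3.51, 2.90 and 3.38 in SM/J, 2.91, 3.08, 3.61 and 3.02 in PL/J, and 3.55, 2.75, 3.40 and 3.10 in SJL/J, all within the range of the Y-linked genes. The differences were -2.74, -2.74 and -2.69, each ± 0.83 (adjusted p 0.0342, 0.0344 and 0.039 by limma). A lower level could not have been read, and each call was lost when any 1 array was left out (adjusted p up to 0.12) and with the groups of mouse number as a covariate (0.084 to 0.143). The strains differed in the other genes: Myl7 was between 9.45 and 11.05 in SM/J, while PL/J and SJL/J were among the 5 strains with the lowest means over the 8 genes, at 6.40 and 6.25. The call of SJL/J was lost without the 29 arrays with liver or lung transcripts, which left 2 of its 4 arrays (adjusted p = 0.233 by limma). Without the 20 low arrays, none of which came from SJL/J, Myl4, Myl7, Tnnt2, Tnni3, Mybpc3 and Ryr2 were also called lower in that strain, with differences of -2.14, -2.15, -2.35, -2.89, -1.69 and -1.50 (adjusted p 0.00072 to 0.048 by limma). The arrays left out were chosen by low Myl7 and came from other strains. Leaving them out lowered the SD within strains of Myl7 from 1.604 to 1.108 by construction, so these added calls are no separate support.

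BXD48/RwwJ had the lowest mean over the 8 genes, 6.00. Myl7 read 5.11, 3.60, 10.02 and 7.93, Tnnt2 5.04, 2.13, 9.76 and 8.27, Tnni3 4.52, 2.68, 9.44 and 7.57, and Myl4 6.53, 4.39, 10.71 and 8.88. The order of the 4 arrays was the same in each gene, and replicate 3 lay near the median of all arrays. The differences from the other strains were -3.27 ± 0.80 for Myl7, -3.00 ± 0.86 for Tnnt2, -2.70 ± 0.86 for Tnni3 and -2.28 ± 0.69 for Myl4 (adjusted p 0.0046, 0.0213, 0.0487 and 0.0344 by limma). All 4 calls were lost without replicate 1 (adjusted p 0.0663 to 0.23) or without replicate 2 (0.162 to 0.474), and those of Myl4, Tnnt2 and Tnni3 also with the groups of mouse number as a covariate (0.0987 to 0.196). Without the 20 low arrays, of which 2 were of this strain, the differences of the 4 genes were -0.32 to -1.21 and were not called (adjusted p 0.467 to 0.886), and without the 29 other arrays Tnni3 was not called (0.0632). BXD38/TyJ and BUB/BnJ, at means of 6.30 and 6.59, were the other strains among the lowest 5, and no gene was called in them.

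In CXB13/HiAJ, a recombinant inbred line from BALB/cBy and C57BL/6By, Ryr2 read 4.04, 4.42, 5.96 and 4.74, lower by 1.73 on the log2 scale (SE 0.49, adjusted p = 0.0197 by limma). This call was lost without replicate 1, 2 or 4 (adjusted p 0.0592 to 0.125) or without the arrays with liver or lung transcripts, 1 of them of this strain (0.129).

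**Figure D3:**
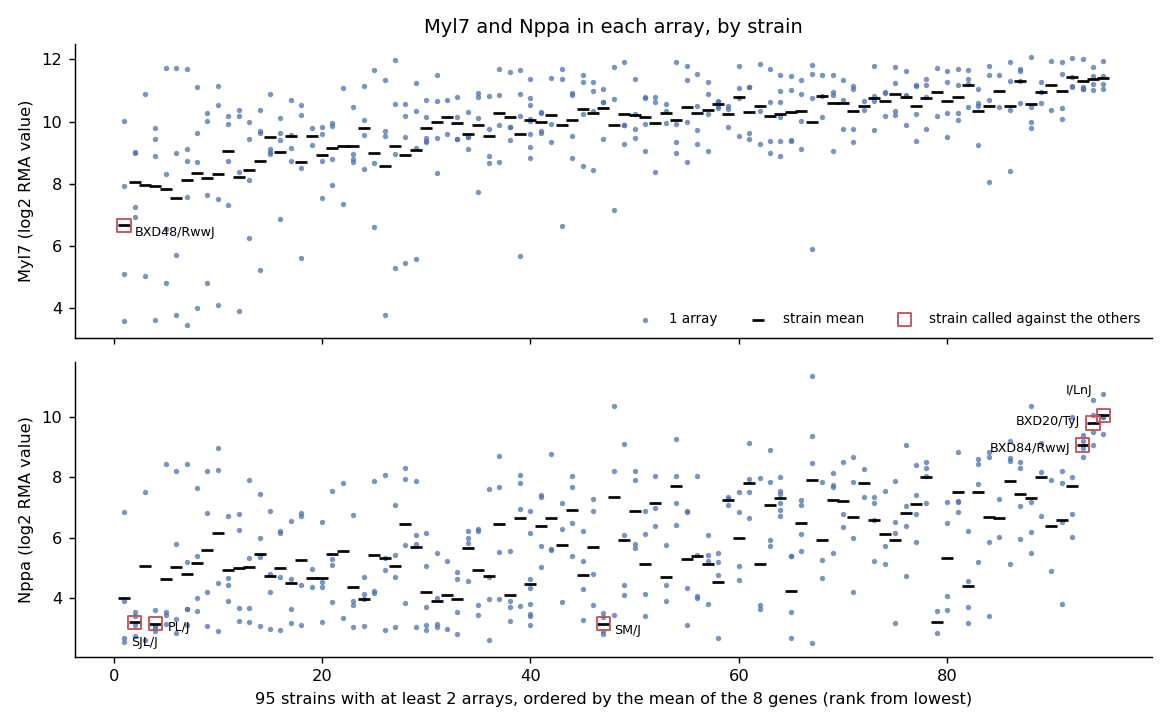
Log2 signal of Myl7 (top) and Nppa (bottom) in each array of the 95 strains with at least 2 arrays, ordered along the horizontal axis by the mean of the 8 genes. Blue points are arrays, black bars strain means, and red squares mark strains called against the others: BXD48/RwwJ for Myl7, and 3 higher and 3 lower strains for Nppa. Low Myl7 arrays stand beside ordinary ones of the same strain.

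The 5 sets of strains (AXB/BXA, BXD, BXH, CXB and the other inbred strains) were compared on strain means. By limma's F test 0 of 8 genes were called, against 7.47% of all probe sets, and 1 gene, Nppa, had an unadjusted p under 0.05 (0.0279, adjusted 0.163). The mean of Nppa was 6.39 over 33 BXD strains, 6.04 over 19 AXB/BXA strains, 5.87 over 8 CXB strains, 5.30 over 31 other strains and 5.16 over 4 BXH strains, with SDs between strains of 1.09 to 1.84, so that the sets overlapped widely.

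The genes moved together from mouse to mouse. In deviations from the strain mean over 360 arrays, Myl4 and Tnni3 had r = 0.99, and the 6 pairs of Myl4, Myl7, Tnnt2 and Tnni3 had r between 0.98 and 0.99. Actc1 followed these 4 genes at 0.93 to 0.96. Over all 28 pairs, r ranged from 0.75 (Nppa with Actc1) to 0.99, and rho from 0.78 to 0.99. In a permutation test of mice within strains, every pair had p = 1e-05, the smallest that 100000 resamples can give, and adjustment over the 28 pairs left it at 1e-05. Without the 2 arrays farthest from the median of the first gene, r was between 0.77 and 0.99, and without the 20 low arrays the median r over the pairs was 0.88 in place of 0.83, which it also was without the 29 arrays with liver or lung transcripts.

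Over the means of 95 strains, Myl4 and Tnni3 again had r = 0.99 and the 21 pairs without Nppa had r between 0.67 and 0.99. The 7 pairs with Nppa had r between 0.47 and 0.55 and rho between 0.42 and 0.51 (permutation p = 1e-05 for each r, adjusted 1e-05 over 28 pairs). Without the 2 strains farthest from the median they had r between 0.40 and 0.54. Without the 20 low arrays they had 0.44 to 0.57 and the other pairs 0.71 to 0.98, and without the 29 arrays 0.48 to 0.56 and 0.68 to 0.99. The strain means share genes of C57BL/6J and, within a recombinant set, both parents. For Myl4, Myl7, Tnnt2, Tnni3 and Actc1 only 9.01% to 11.3% of the variance lay among strains, at a median of 4 arrays per strain. Their strain means thus also carry averaged differences between mice, and the r between strains partly repeats the r within strains. Nppa thus followed the contractile genes from mouse to mouse more closely than from strain to strain, a contrast that is described here and was not tested as such.

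To set strains side by side at equal signal of the contractile genes, the mean of Myl4, Myl7, Tnnt2 and Tnni3 in each array was used as a covariate, a fit added after the data had been seen. The share of variance of Nppa among strains was then 56.7% (F = 6.02, adjusted p = 2.17e-29 by limma), 63.0% without the 20 low arrays and 57.3% without the 29 arrays with liver or lung transcripts. Within strains Nppa rose by 0.85 log2 units per unit of the covariate. The share was 31.4% for Actc1 (49.1% without the low arrays), 32.6% for Ryr2 (43.3%) and 21.2% for Mybpc3 (27.8%), each also past the threshold, as were 77.0% of all probe sets in this fit.

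In that fit Nppa was higher in 6 strains and lower in 12, against 2.27% and 1.83% of all pairs of a probe set and a strain. The strains named here were chosen after their values were seen. AKR/J had Nppa at 3.71, 4.57, 3.18 and 6.21, while Myl7 in the same arrays read 10.47, 11.37, 11.20 and 11.66. CE/J had Nppa at 3.59 and 2.84 with Myl7 at 11.72 and 10.17. I/LnJ, with Myl7 from 11.05 to 11.95, had Nppa from 9.43 to 10.76, so that arrays with like levels of Myl7 differed in Nppa without overlap.

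The differences at equal covariate were -3.22 ± 0.48 for SM/J (adjusted p = 1.34e-07 by limma), -3.67 ± 0.68 for CE/J (4.84e-05, 2 arrays), -2.48 ± 0.49 for AKR/J (0.000144) and -2.24 ± 0.48 for RIIIS/J (0.000817). They were 2.93 ± 0.49 for I/LnJ (3.03e-06), 2.57 ± 0.49 for BXD20/TyJ (7.09e-05) and 2.09 ± 0.48 for C58/J (0.00226). Each array of the 10 called strains with the lowest p and at least 3 arrays was left out in turn, and only C58/J lost its call, without replicate 1 (1.49, adjusted p = 0.11 by limma). The other called strains, with adjusted p up to 0.0365 by limma, were not refitted in this way. Without the 20 low arrays Nppa was higher in 9 strains and lower in 14, and without the 29 arrays in 6 and 11. PL/J and SJL/J, called lower without the covariate, were not called with it (-1.10, adjusted p = 0.214, and -0.90, adjusted p = 0.345 by limma), and of these PL/J was called when the 20 low arrays were also left out (-1.71, 0.0279). Nppa in SM/J, CE/J, PL/J and SJL/J was within the range of the Y-linked genes, where it cannot fall further with the covariate. The size of these differences is limited by that floor. The covariate itself ran from 3.98 to 9.2 in PL/J and from 6.14 to 8.52 in SJL/J. In SM/J and CE/J, which were called, it ran from 9.11 to 10.65 and read 11.31 and 9.88. Why the calls of PL/J and SJL/J were lost was not tested.

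C3H/HeJ and C57BL/6J are the parents of the BXH lines, a set chosen after its values were seen. Without the covariate neither parent was called in Nppa (-1.40, adjusted p = 0.181, and 1.45, adjusted p = 0.252 by limma). C3H/HeJ had Nppa between 3.11 and 6.88 with a median of 4.07 over 8 arrays, and was lower by 1.58 at equal covariate (SE 0.34, adjusted p = 0.000925 by limma). C57BL/6J had it at 6.92, 6.73, 8.00, 7.15, 7.46 and 7.55 over 6 arrays, higher by 1.21 ± 0.40, which did not pass (adjusted p = 0.0561 by limma) but did without the 20 low arrays (1.28, adjusted p = 0.0167). The arrays of the parents overlapped in 1 of C3H/HeJ, at 6.88. Among the BXH lines, BXH6/TyJ (2.80 to 4.85) and BXH22/KccJ (3.24 to 5.57) were called lower, by 1.95 and 2.00 (adjusted p 0.0054 and 0.00397 by limma). BXH19/TyJ had Nppa at 3.90, 4.45 and 5.76 (-1.66, adjusted p = 0.0665 by limma), and BXH8/TyJ at 9.21, 5.14, 8.65 and 8.52 (1.31, adjusted p = 0.106 by limma). In other sets, some lines lay outside both parents at equal covariate. AXB19a/PgnJ was at -1.79 (adjusted p = 0.0133 by limma), beside 0.86 for A/J and 1.21 for C57BL/6J. BXD20/TyJ was at 2.57, beside 0.40 for DBA/2J. No line was tested against its parents. All F1 mice carried at least 1 C57BL/6J copy of the gene, so these differences are between crosses that share it.

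**Figure D4:**
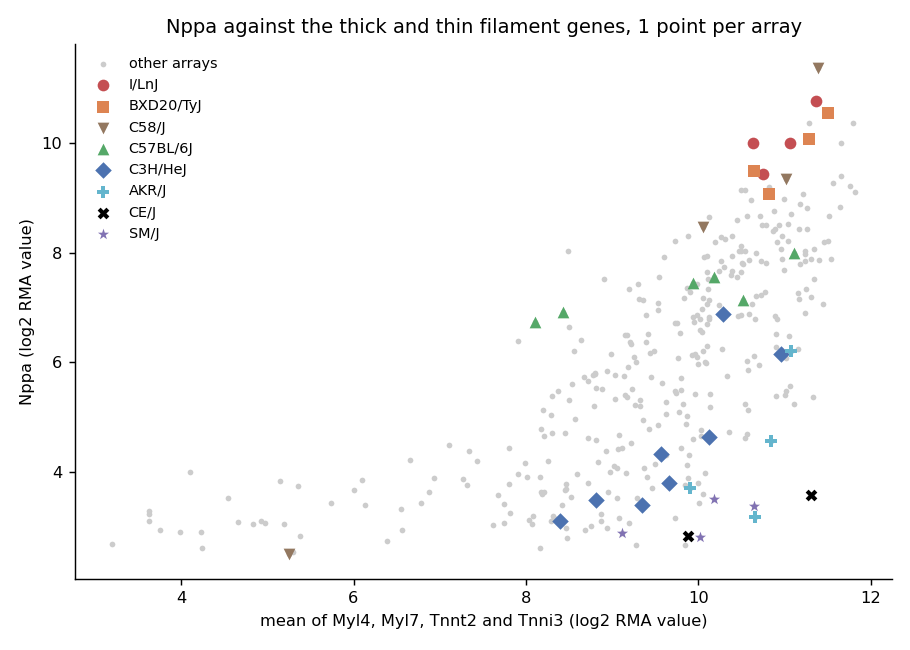
Nppa (vertical axis) against the mean of Myl4, Myl7, Tnnt2 and Tnni3 (horizontal axis), both as log2 signal, 1 point per array. Coloured marks are the arrays of 8 strains and grey points all others. The arrays of I/LnJ and BXD20/TyJ lie above 9 and those of SM/J and CE/J under 3.6. Along the horizontal axis I/LnJ runs from 10.64 to 11.37 and BXD20/TyJ from 10.65 to 11.51. SM/J runs from 9.11 to 10.65 and touches only their lower edge, and CE/J lies at 11.31 and 9.88.

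For the other genes of this fit, Ryr2 was higher in I/LnJ (0.98 ± 0.29, adjusted p = 0.0255 by limma) and lower in BXD21/TyJ, CXB13/HiAJ, MA/MyJ and FVB/NJ (-1.42, -1.41, -1.23 and -1.21). Mybpc3 was higher in I/LnJ (1.66 ± 0.32, adjusted p = 8.28e-05 by limma) and SWR/J (1.13 ± 0.32, adjusted p = 0.0181). Of 95 strains, Ryr2 was thus called higher in 1 and lower in 4, Mybpc3 in 2 and 0, and Actc1 in 3 and 2. Of all pairs of a probe set and a strain, 2.27% were called higher and 1.83% lower in this fit. In C58/J the call of Actc1 rested on replicate 3. That array read 11.40 for Actc1 with 5.90 for Myl7, 3.12 for Tnni3 and 2.50 for Nppa, and it also read 13.15 for Acta1, the actin of skeletal muscle. Without the low arrays the difference of C58/J in Actc1 was -0.14 (adjusted p = 0.802 by limma) in place of 1.29 (4.69e-05), while the strains called in Actc1 rose from 3 higher and 2 lower to 8 higher and 6 lower. Within strains, Actc1 had r = -0.003 with the mean of 22 skeletal muscle genes. BXD32/TyJ replicate 4 read 12.81 for Acta1, 5.51 for Actc1 and 5.58 for Myl7. BUB/BnJ replicate 4 read 13.3, 10.63 and 8.32. Both arrays were picked after their values were seen. Whether the probe set of Actc1 also takes up the near-identical Acta1 transcript was not tested.

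The genes most like the cardiac genes were found by the correlation of each of the other genes with the mean of the 8, in deviations from strain means over 360 arrays. This is a description, since the arrays of a strain share a cross. Pln, phospholamban, the regulator of the heart's calcium pump, had r = 0.99, and Ankrd1, a stress-responsive protein of heart muscle, r = 0.96. Nebl, a Z-disc protein of heart muscle, Myh7, the slow myosin heavy chain, and Myzap, a protein of the intercalated disc, had r = 0.84. Fam174b had 0.84, Corin, the protease that activates the Nppa product, 0.83, Mylk3, the cardiac myosin light chain kinase, 0.83, Atp2a2, the calcium pump itself, 0.82, and Fhl2 0.82. Pln ranged from 3.10 to 10.81 over the arrays, and in the low arrays it was at most 4.76. The 5 lowest were Hoxc8 at -0.35, Setmar at -0.32, Eef1e1 at -0.32, Ube2f at -0.31 and Eif1ad at -0.31.

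A longer list of 33 measured heart muscle genes was split between 2 patterns. Of these, 12 had r over 0.5 with the 8 genes (36.4%, against 0.474% of all genes), and 18 had r over 0.5 with the mean of 22 skeletal muscle genes (54.5%, against 2.71% of all genes), with 2 (Myoz2 and Casq2) in both. The mean of the 8 genes and that of the skeletal muscle genes had r = -0.10 with each other. Trdn and Nrap followed the skeletal genes (0.95 and 0.93, with 0.08 and 0.11 for the cardiac genes), while Pln and Ankrd1 followed the cardiac genes (-0.08 and -0.09 for the skeletal genes). Tnnc1, the troponin that binds calcium in heart and slow muscle, and Csrp3 lay between, at 0.68 and 0.74 with the cardiac and 0.49 and 0.40 with the skeletal genes. These 6 genes were chosen after their values were seen. Of the most abundant, Atp2a2 had 0.82 with the cardiac genes, and Fabp3, Cox7a1 and Cox8b, which brown fat also expresses, 0.05, -0.04 and -0.06. In the F test, 17 of the 33 were called (51.5%), against 80.6% of all genes.

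**Figure D5:**
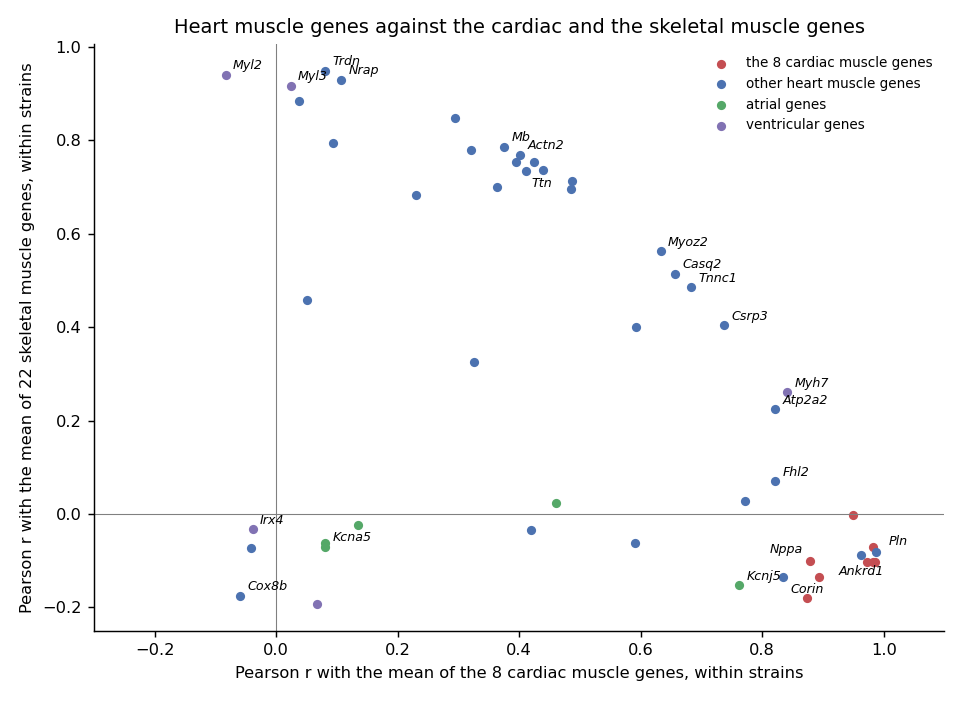
Correlation within strains of each heart muscle gene with the mean of the 8 cardiac muscle genes (horizontal axis) and with the mean of 22 skeletal muscle genes (vertical axis), 1 point per gene, over 360 arrays. For the 8 genes themselves the mean on the horizontal axis holds the gene. The 8 genes, Pln and Ankrd1 lie at the lower right, and Myl2, Myl3, Trdn and Nrap at the upper left.

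Genes of the ventricle and of the atrium were set against the 8 genes in the same way. Myl2, the ventricular regulatory light chain, had r = -0.08 with the 8 genes and 0.94 with the skeletal muscle genes, and Myl3, the ventricular essential light chain, 0.02 and 0.92. In PL/J replicate 1, Myl2 read 10 and Acta1 12.24 while Myl7 read 3.63 and Tnni3 2.74. In I/LnJ replicate 2, Myl2 read 3.15 and Acta1 3.77 while Myl7 read 11.05 and Tnni3 10.04. Myh7 had 0.84 and 0.26, and whether its probe set also takes up the near-identical Myh6 transcript, of the neighbouring gene, was not tested. Irx4, a factor of ventricular muscle, stayed between 2.22 and 3.06, within the range of the Y-linked genes, and Hey2 had r = 0.07.

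Of the atrial list, Kcnj5, a subunit of the acetylcholine-gated potassium channel, had r = 0.76 with the 8 genes and ranged from 2.94 to 6.24 with a median of 3.80. Its partner Kcnj3 had 0.46 and ranged from 2.53 to 4.37. Bmp10, Kcna5 and Gja5 had 0.13, 0.08 and 0.08, with Bmp10 at most 3.55 and Gja5 at most 3.05, in the range of the Y-linked genes. Kcna5 is also expressed in smooth muscle. In the F test 3 of 5 atrial genes and 4 of 5 ventricular genes were called, against 80.6% of all genes. Bmp10 (adjusted p = 0.000618 by limma) and Irx4 (0.0161) were among the called, though both stayed in the range of the Y-linked genes. The Y-linked Eif2s3y was itself called (1.87e-06), with 23.4% of its variance among strains. The F test thus also called genes at background.

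Among 10 factors that direct heart development, Tbx5 had r = 0.74 with the 8 genes, Gata6 0.33, Myocd 0.25 and Mef2c 0.03, and Tbx20, named after its value was seen, 0.66, with Hand2 the lowest at -0.15. Nkx2-5 and Gata4, also named outside the rule, had 0.19 and 0.34. The highest values of Nkx2-5, Gata4 and Hand2 were 2.96, 3.14 and 3.45, within the range of the Y-linked genes. Tbx20 had a median of 2.86, in that range too, and reached 5.59. Of these 10 factors 7 were called in the F test, beside 80.6% of all genes. The probe set that the study's own gene tables pair with Myh6, the main myosin heavy chain of the adult mouse heart, is outside the rule: it ranged from 1.92 to 6.25 with a median of 3.04, was above the highest Y-linked value in 108 of 366 arrays, and had r = 0.75 with the 8 genes within strains.

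Markers of other tissues were followed beside the cardiac genes. The 22 skeletal muscle genes had r between -0.14 and 0.16 with the 8 genes, among them Myl1 at 0.06, Acta1 at -0.14, Tnnc2 at -0.14 and Ckm at 0.16. The 13 smooth muscle genes ran from 0.09 to 0.42, with Acta2 at 0.18, Cald1 and Myl9 at 0.16 and Tpm2 at 0.11. The 7 brown adipocyte genes ran from -0.24 (Plin5) to -0.05, with Ucp1 at -0.17, and the 6 general adipocyte genes from -0.11 to 0.10. The 10 endothelial genes ran from -0.01 to 0.35, the 9 fibroblast genes from 0.04 to 0.28, the 10 macrophage genes from -0.00 to 0.06, and the 8 mesothelial and epicardial genes from -0.07 to 0.27. The 9 hepatocyte genes ran from -0.00 to 0.14 and the 5 lung epithelial genes from -0.05 to 0.11. None of these lists had a gene with r over 0.5. All 13 smooth muscle genes but 1 were called among strains, with a median share of variance of 45.9%, and all 7 brown adipocyte genes, with 44.6%, against 11.3% for the 8 cardiac genes. The median share was 4.11% for the skeletal muscle genes, 7.98% for the other heart muscle genes, 8.03% for the atrial and 9.39% for the ventricular genes, 6.47% for the hepatocyte and -2.33% for the lung epithelial genes, so that shares as low were seen in other lists. In the F test, 6 of 22 skeletal muscle genes, 6 of 6 general adipocyte, 10 of 10 endothelial, 9 of 9 fibroblast, 10 of 10 macrophage, 8 of 8 mesothelial, 3 of 9 hepatocyte, 1 of 5 lung and 1 of 3 Y-linked genes were called, beside 80.6% of all genes.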

How the data were processed

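Total RNA of 366 aortas, arch to middle abdomen, was hybridised by the authors to Affymetrix arrays, named HT_MG-430A in the sample labels and HT-MG_430 PM in the methods. The deposited values are log2 signals that the authors made with GCOS and RMA, whose versions are not given in the sources used here. RMA takes background off, puts arrays on 1 distribution and summarises the probes of a set, so that values near 2 to 3 are background and a fold change of a dim gene is understated. Array medians were 3.17 to 3.40, and the number of arrays limits the precision. No raw intensities were used.

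Arrays were grouped by the strain in their labels. The labels give no batch, and do not say whether mice of a strain shared a litter, so that p-values measure the spread between these mice. Of the probe sets, 28898 carry 1 gene symbol in the platform annotation, 551 several and 15692 none. The members, the gene lists and the rules for naming were chosen with earlier results of these data known. Named were the 8 genes, the atrial and ventricular lists, the 4 genes of highest mean of the other lists, the 10 highest and 5 lowest correlations, and the strains called or among the 5 highest and 5 lowest; genes and strains outside this rule are marked where they stand.

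Tests were run in R 4.3.3 with limma 3.58.1 on all 45141 probe sets and the 360 arrays of strains with at least 2 arrays: an F test over strains, each strain against the mean of the others (adjusted by Benjamini-Hochberg over all pairs of probe set and strain), and an F test of strain means over strain sets, at an adjusted p of 0.05. The share of variance among strains is the intraclass correlation from a 1-way layout, with a jackknife SE over strains. Correlations used 100000 permutations of mice within strains, or of strains (Python with numpy and scipy). The fits were tested on simulated data with 200 changed probe sets. The alternatives were other probe sets, filters, normalizations, covariates and left-out arrays, with 76 refits that left out 1 array. A fit with the mean of Myl4, Myl7, Tnnt2 and Tnni3 as a covariate, and fits without the arrays with Myl7 under 6 or with Alb or Sftpc over 6, were added after the data had been seen. Promoters are from RefSeq (GRCm38.p6), which held 1 or more for each of the 8 genes.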

Additional observations from a re-analysis of the deposited data

Results flagged for a closer look

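Among 27 pairs of a gene and a strain given array by array in the report, 2 held 1 array far from the others by Dixon's test at the 95% level, and chance flags about 1 group in 20. In BXH8/TyJ, Nppa read 5.14 in 1 array and 8.52 to 9.21 in the other 3. In I/LnJ, Ryr2 read 7.96 in 1 array and 8.29 to 8.34 in the other 3.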

How the results depend on the processing

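No paired analysis was possible because the labels give no replicate numbers, and those used here follow the order of the records. The number of the 8 genes called among strains was 8 as reported, ranged from 2 to 8 when 1 replicate of every strain was left out, and was 5 without the arrays with Alb or Sftpc over 6, where Myl7, Tnnt2 and Tnni3 were lost; the other alternatives gave 8. Of all probe sets, 34765 were called, and 21625 when only those with a mean above the median were tested, which are fewer. Of the pairs of a gene and a strain, 13 were called as reported, 21 with adjustment within each strain and 6 with the 4 groups of mouse number as a covariate, which kept Nppa in I/LnJ and BXD20/TyJ, Mybpc3 in I/LnJ, Myl7 in BXD48/RwwJ and Ryr2 in CXB13/HiAJ and called Ryr2 in KK/HlJ in addition (1.78, adjusted p = 0.0292 by limma). Without the arrays with Myl7 under 6 it was 16, and without those with Alb or Sftpc over 6 it was 11, among them 1 new pair (Ryr2 lower in FVB/NJ); the first also called Nppa higher in C58/J. The median share of variance over the 8 genes was 11.3%, 13.3% with normal scores of ranks, 11.7% with strains of at least 3 arrays, and 12.7% and 9.36% without those sets of arrays. All 28 pairs passed in every alternative for correlations, within and between strains. In the fit without the covariate, no alternative reversed the direction of a reported call. In the fit with the covariate, the called difference of Actc1 in C58/J went from 1.29 to -0.14 without the low arrays. The cause of the changes was not tested beyond the number of probe sets or arrays left. Signals near the Y-linked genes limit Nppa and Mybpc3, for which a lower level cannot be read.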

Other observations

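The 6 strains with 1 array entered no test. Their Nppa read 7.64 in BXA1/PgnJ, 5.51 in BXA25/PgnJ, 6.50 in BXD2/TyJ, 6.37 in BXD22/TyJ, 7.87 in BXD34/TyJ and 5.41 in CXB11/HiAJ. Their Myl7 lay between 9.61 (BXD2/TyJ) and 11.14 (CXB11/HiAJ), so that none of them was among the low arrays. CXB11/HiAJ had the highest Myl4 of the 6, at 11.43, and the lowest Nppa.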
